A study of Homo sapiens with 8 samples.

Results

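The genes described here are the death receptor FAS, the 4 receptors of the ligand TRAIL (TNFRSF10A, TNFRSF10B, TNFRSF10C and TNFRSF10D), the TNF receptor TNFRSF1A, the ectodysplasin receptor EDA2R, the initiator caspase CASP8 and the nuclease AEN. They were found by symbol in the deposited tables and make 9 of 46425 distinct symbols. All 9 were among the 18303 genes tested. The RNA came from H7, an established human embryonic stem cell line of wild-type genotype, carried through endoderm, foregut and lung progenitor stages to cells that the labels call differentiated type 2 alveolar cells. After 7 days at an air-liquid interface, 1 group was labelled control and received no bleomycin. The other 3 groups received bleomycin at 24, 240 or 480 µg/ml in 500 µl on the apical side for 24 hours. No apical volume is given for the control group, so the part of added liquid in differences from it was not tested. Bleomycin is a drug that breaks DNA strands and causes lung fibrosis in animals, and the series asks which fibrosis-related expression it brings out in such cells. Each group had 2 libraries. Whether these were separate cultures is not stated in the labels, so a p-value here speaks only of the spread among these libraries, and that spread may be technical.

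Death receptors are membrane proteins of the TNF receptor family. When FAS, TNFRSF10A or TNFRSF10B binds its ligand, the death domain inside the cell recruits the adaptor FADD, which brings CASP8 molecules together so that they cut and activate each other and then the executioner caspases. TNFRSF10C and TNFRSF10D bind TRAIL but lack a working death domain, and are known as decoy receptors. TNFRSF1A signals mainly through TRADD and NF-kB and can also lead to cell death. EDA2R binds a form of ectodysplasin and has no death domain, and AEN is an exonuclease that degrades DNA in apoptosis. FAS, TNFRSF10B, EDA2R and AEN are known as genes that DNA damage can switch on. Lung alveolar epithelium is among the tissues in which FAS can trigger apoptosis.

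Total counts ran from 53431773 to 67715984 per library. Levels are CPM, counts scaled to a common library size, after TMM normalisation, which corrects for differences in library composition. Levels of different genes are compared in TPM, which is scaled to gene length. The sums of cell type markers below, and the genes that made most of them, are in CPM and not scaled to length. The libraries of 480 µg/ml stood further apart than those of other groups, with an SD over genes of their log2 ratio of 0.64 against 0.50 to 0.52. The surfactant gene SFTPC, the marker most specific to type 2 alveolar cells, had 0 counts in 6 libraries. Of 11 type 2 alveolar markers 8 passed the filter on low counts. The 11 summed to 167 to 169 CPM in untreated libraries, 168 to 187 at 24 µg/ml, 121 to 122 at 240 µg/ml and 99.7 to 109 at 480 µg/ml. LPCAT1, a surfactant lipid enzyme gene, made most of that sum, with 118 ± 2.39 CPM (SD, n = 2) untreated and 60.2 ± 0.077 CPM at 480 µg/ml (log2 fold change -0.97, edgeR adjusted p = 0.000624). ABCA3, the surfactant lipid transporter, rose from 13.1 ± 1.58 to 28.9 ± 4.61 CPM (1.15, edgeR adjusted p = 0.00154). LAMP3, not called, had 0.986 ± 0.022 and 1.60 ± 0.39 CPM. SLC34A2 had 14.7 ± 0.90 CPM untreated and 1.43 ± 0.19 CPM at 480 µg/ml, and SFTPB had 15.9 ± 1.38 and 6.47 ± 1.78 CPM. NKX2-1 had 0.923 ± 0.14 and 0.285 ± 0.032 CPM, and PGC had 3.78 ± 0.029 and 5.02 ± 0.48 CPM. Of 10 hepatic markers all 10 passed. They summed to 54211 to 55808 CPM in untreated libraries, 40700 to 59355 at 24 µg/ml, 78770 to 85680 at 240 µg/ml and 66476 to 70910 at 480 µg/ml. AFP made most of that sum, with 43349 ± 1083 CPM untreated and 49754 ± 4210 CPM at 480 µg/ml. FGA had 312 ± 19.9 and 1862 ± 99.8 CPM, and SERPINA1 had 1394 ± 48.7 and 1247 ± 188 CPM. Of 10 immune cell markers 6 passed and 2 were at 0 in every library, the natural killer cell gene NKG7 among them. Their sum was 227 to 268 CPM in untreated libraries and 158 to 240 over all treated ones, nearly all of it CD68 and LYZ. Of 6 pluripotency markers 4 passed, and POU5F1 was at 0 in every library. Their sum was 52.1 to 58.2 CPM in untreated libraries, 50.5 to 51.1 at 24 µg/ml, 23.4 to 32.8 at 240 µg/ml and 17.3 to 17.6 at 480 µg/ml, most of it SOX2 and LIN28A. The part of these shifts in cell type markers in the results below was not tested. In RNA from a whole culture, fewer cells of a type and less RNA per cell cannot be told apart.

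At the 2 higher doses a subset of these genes was higher than in the untreated libraries. FAS and TNFRSF10C rose most, to between 3.29 and 4.45 times the untreated level, and EDA2R, TNFRSF10D and AEN rose to between 1.52 and 2.07 times it. TNFRSF10A passed the test at 480 µg/ml only, and TNFRSF10B, CASP8 and TNFRSF1A did not pass it at any dose. A gene counts as called, or as having risen or fallen, where the adjusted p of edgeR's quasi-likelihood test was under 0.05. At 240 µg/ml 5 of the 9 genes were called, all higher (FAS, TNFRSF10C, TNFRSF10D, EDA2R and AEN), where 10.3% of all genes tested were called and 5.16% were called higher. The count was 3 without untreated replicate 1, 2 without untreated replicate 2, 3 without 240 µg/ml replicate 1 and 2 without 240 µg/ml replicate 2. The number of all genes called went from 1892 to 153, 164, 347 and 120 in the same order. At 480 µg/ml 6 were called, all higher (the same 5 and TNFRSF10A), against 27.8% of all genes called and 13.9% called higher. At 24 µg/ml edgeR called 0 of the 9, and 0% of all genes. Unadjusted p was under 0.05 for 6 of the 9 there and for 605 of the 18303 genes. If no gene differed, 915 of all genes would be expected under it. DESeq2 called 3 of the 9 among 36 genes in all. With either library of 480 µg/ml left out, the log2 fold change at 24 µg/ml was 0.97 for TNFRSF10C and 0.69 for EDA2R. With all libraries these were 0.97 and 0.69 as well. The 3 comparisons share the untreated libraries.

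**Figure D1:**
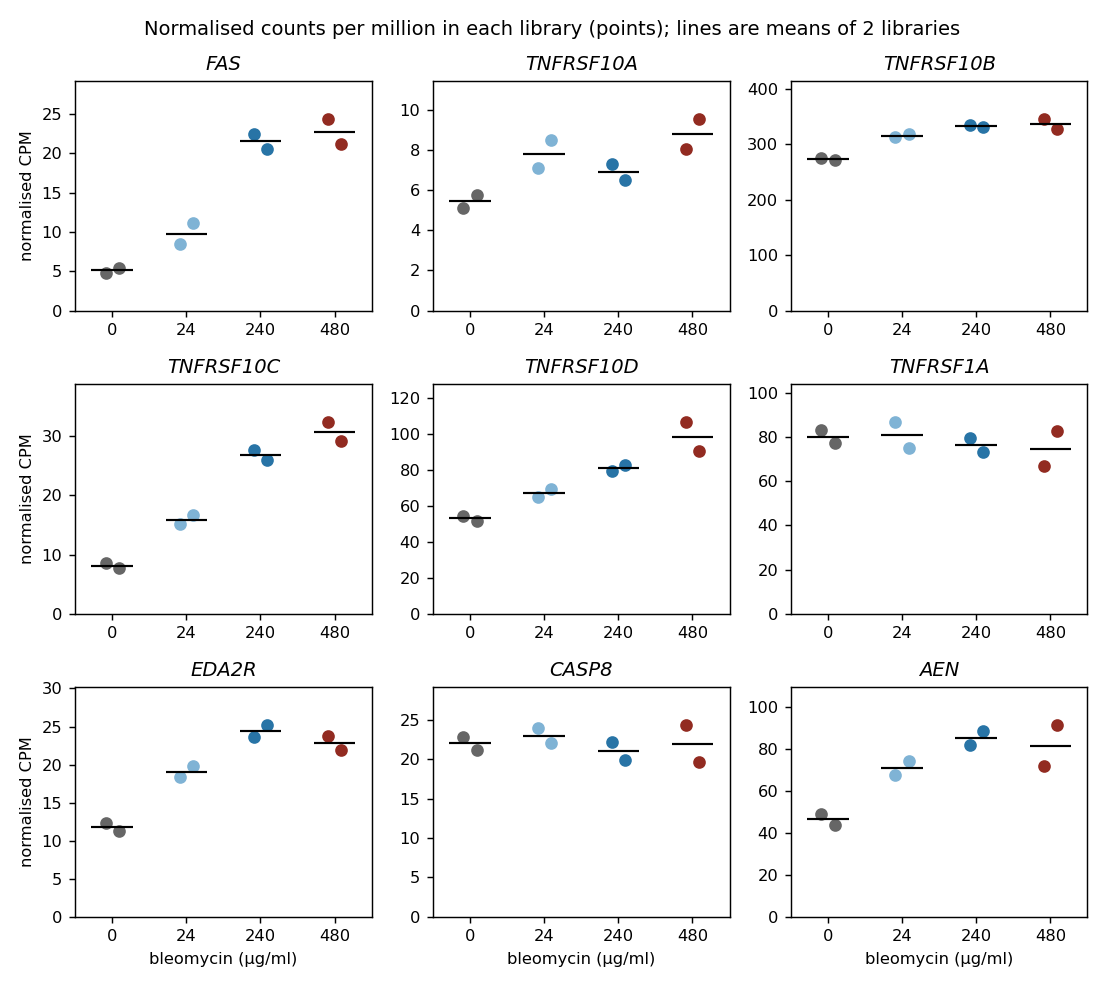
Normalised CPM of the 9 genes in each library (points; axis from 0) against bleomycin dose in µg/ml (evenly spaced groups), with lines at the means of 2 libraries. FAS goes from 4.75 and 5.47 in untreated libraries to 24.3 and 21.2 at 480 µg/ml, while the CASP8 libraries of all doses lie between 19.7 and 24.3.

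The median log2 fold change of the 9 genes was 0.52, 0.61 and 0.81 at 24, 240 and 480 µg/ml, where the median of all genes tested was 0.01 at each dose. At 24 µg/ml both treated libraries lay above both untreated ones for 7 of the 9 genes, all but CASP8 and TNFRSF1A, and this was so for 18.6% of all genes. The same 7 genes lay above at 240 µg/ml, where 33.8% of all genes did, and at 480 µg/ml, where 31.8% did. In the joint test of any difference among the 4 groups, 5 of the 9 genes were called, against 21.3% of all genes. They were FAS, TNFRSF10C, TNFRSF10D, EDA2R and AEN. Without untreated replicate 2 the joint test called fewer of the 9 genes, and fewer of all genes.

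**Figure D2:**
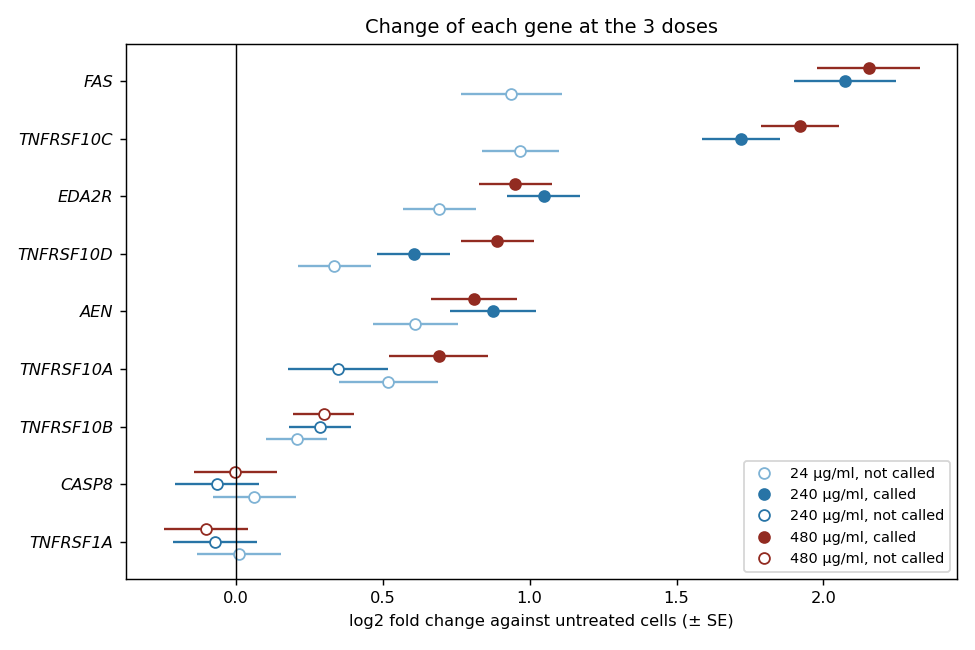
Log2 fold change of each gene against untreated cells at the 3 doses, with bars of 1 SE from the edgeR fit; filled points were called. FAS and TNFRSF10C stand furthest to the right, at 2.15 and 1.92 for 480 µg/ml, and the bars of CASP8 and TNFRSF1A cross 0 at each dose.

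FAS, on chromosome 10 (RefSeq, GRCh38.p14, chr10:88964050-89017059), is the receptor of FAS ligand. It had 4.75 and 5.47 CPM in the untreated libraries and 8.45 and 11.1 CPM at 24 µg/ml. At 240 µg/ml it had 22.5 and 20.5 CPM, and at 480 µg/ml 24.3 and 21.2 CPM. No treated library overlapped an untreated one, those of 24 µg/ml lay between the untreated and the higher doses, and those of 240 and 480 µg/ml overlapped. FAS rose by 2.07 ± 0.17 (log2 fold change ± SE) at 240 µg/ml (edgeR adjusted p = 0.000893) and 2.15 ± 0.17 at 480 µg/ml (edgeR adjusted p = 0.000158), which are 4.21 and 4.45 times the untreated level. At 24 µg/ml it was 0.94 ± 0.17 and not called (edgeR adjusted p = 0.398). By log2 fold change FAS ranked 247 of 18303 genes at 240 µg/ml and 372 at 480 µg/ml. The gene shares 27288 bases of its annotated span with ACTA2, smooth muscle actin, on the opposite strand. ACTA2 rose by 2.27 and 2.35 on the log2 scale at these doses (edgeR adjusted p = 0.00072 and 0.000107). The libraries were made with a stranded kit, but whether the counting used the strand is not given in the sources used here, so the part of reads from ACTA2 in the FAS values was not tested. FAS-AS1, an antisense RNA at FAS, had at most 2 counts in a library.

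The decoy receptor TNFRSF10C rose nearly as much as FAS. The 4 TRAIL receptor genes lie side by side on chromosome 8 (GRCh38.p14), in the order TNFRSF10B (chr8:23020133-23069031), TNFRSF10C (chr8:23102921-23117445), TNFRSF10D (chr8:23135588-23164027) and TNFRSF10A (chr8:23190452-23225102). Their extracellular parts are related in sequence, and how reads matching more than 1 of them were assigned is not given in the sources used here, so the split between them is uncertain to that extent. TNFRSF10C, which is held to the membrane by a lipid anchor, had 8.54 and 7.70 CPM in untreated libraries and 15.2 and 16.6 CPM at 24 µg/ml. It had 27.6 and 25.9 CPM at 240 µg/ml and 32.3 and 29.2 CPM at 480 µg/ml. In CPM no 2 dose groups overlapped, and the order of the groups was that of the doses. In TPM the libraries of 240 µg/ml (42.3 and 39.7) overlapped those of 480 µg/ml (56.2 and 42.2). The step from 240 to 480 µg/ml was not called (0.20 ± 0.13 on the log2 scale, edgeR adjusted p = 0.627). TNFRSF10C rose by 1.72 ± 0.13 on the log2 scale at 240 µg/ml (edgeR adjusted p = 0.00072) and 1.92 ± 0.13 at 480 µg/ml (edgeR adjusted p = 0.000107). At 24 µg/ml it was 0.97 ± 0.13, the largest of the 9 genes there, with an edgeR adjusted p of 0.256.

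TNFRSF10D, the decoy receptor with a truncated death domain, had 54.7 and 51.9 CPM in untreated libraries and 65.3 and 69.2 CPM at 24 µg/ml. It had 79.3 and 82.9 CPM at 240 µg/ml, and 107 and 90.9 CPM at 480 µg/ml. Here too the groups did not overlap and followed the doses. TNFRSF10D rose by 0.61 ± 0.12 at 240 µg/ml (edgeR adjusted p = 0.0199) and 0.89 ± 0.12 at 480 µg/ml (edgeR adjusted p = 0.0014). The call at 240 µg/ml was lost in limma on log2(TPM + 1) (adjusted p = 0.115). It was lost as well without untreated replicate 1 or 2 (edgeR adjusted p = 0.143 and 0.179) and without 240 µg/ml replicate 1 or 2 (edgeR adjusted p = 0.106 and 0.164).

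TNFRSF10B, the most abundant of the 9 genes and a TRAIL receptor with a death domain, moved little. It had 276 and 271 CPM in untreated libraries, 313 and 318 CPM at 24 µg/ml, 335 and 332 CPM at 240 µg/ml and 345 and 328 CPM at 480 µg/ml. Every treated library lay above both untreated ones. The log2 fold change was 0.21 ± 0.10, 0.29 ± 0.10 and 0.30 ± 0.10 at the 3 doses, and none was called (edgeR adjusted p = 1, 0.116 and 0.0613). The 95% interval at 480 µg/ml was 0.06 to 0.54 before adjustment. Without 480 µg/ml replicate 1 or 2 the comparison of that dose with untreated cells was called (edgeR adjusted p = 0.0443 and 0.016), as it was under the stricter filter (0.0428). The comparison of 240 µg/ml was called without 480 µg/ml replicate 1 or 2 (edgeR adjusted p = 0.0184 and 0.0171) and with only the 2 groups compared (0.0237). Its annotated span overlaps that of RHOBTB2 by 67 bases, and RHOBTB2 was not called, with log2 fold changes of 0.14, 0.13 and 0.04.

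TNFRSF10A, the other death domain receptor of TRAIL, was the least abundant of the 4. It had 5.11 and 5.77 CPM in untreated libraries, 7.09 and 8.51 CPM at 24 µg/ml, 7.32 and 6.53 CPM at 240 µg/ml and 8.03 and 9.53 CPM at 480 µg/ml. All treated libraries were above the untreated ones, but the doses did not order them. TNFRSF10A rose by 0.69 ± 0.17 on the log2 scale at 480 µg/ml (edgeR adjusted p = 0.0161), and its log2 fold change was 0.52 ± 0.17 and 0.35 ± 0.17 at 24 and 240 µg/ml, which were not called (edgeR adjusted p = 1 and 0.225). The call at 480 µg/ml was lost without untreated replicate 1 or 2 (edgeR adjusted p = 0.124 and 0.0649) and with only the 2 groups compared (edgeR adjusted p = 0.0545).

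The decoys made a larger share of TRAIL receptor transcripts at each higher dose, which is given as a description. As a share of the summed TPM of the 4 genes, TNFRSF10C made 6.31 ± 0.35% (SD, n = 2) without bleomycin, and with rising dose 10.0 ± 0.41%, 14.8 ± 0.56% and 15.9 ± 0.26%. TNFRSF10B made 75.1 ± 0.43%, 70.6 ± 0.96%, 65.4 ± 0.027% and 61.5 ± 0.99%. The TNFRSF10D share was 16.4 ± 0.31% without bleomycin and 20.2 ± 1.15% at 480 µg/ml, and the TNFRSF10A share stayed between 1.99% and 2.55% on average. The ratio of decoy to death domain receptor TPM was 0.301 and 0.285 in the untreated libraries and 0.358 and 0.376 at 24 µg/ml. At 240 µg/ml the ratio was 0.482 and 0.486, and at 480 µg/ml it was 0.589 and 0.541. No 2 groups overlapped, and the ratio followed the doses. An exact permutation test of 2 against 2 libraries cannot reach p = 0.05. No test over all 4 groups was run on the ratio, which is given as a description. The summed TPM of the 4 genes itself was 208 and 216 in untreated libraries and 349 and 268 at 480 µg/ml, where the libraries stood far apart. The ratio concerns transcripts, and receptor protein at the cell surface was not measured.

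**Figure D3:**
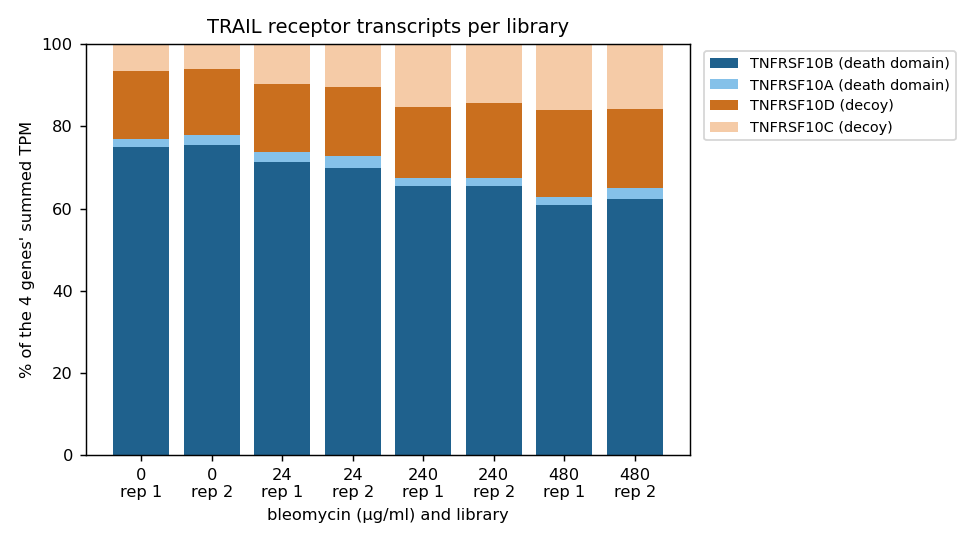
Share of each TRAIL receptor gene in the summed TPM of the 4 genes (%), 1 stacked bar per library, ordered by bleomycin dose in µg/ml. The decoy genes TNFRSF10C and TNFRSF10D take the upper part of the bars, and TNFRSF10B takes 74.8 and 75.5% in untreated libraries and 60.8 and 62.2% at 480 µg/ml.

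EDA2R (chrX:66595637-66639269), the receptor of the A2 form of ectodysplasin, rose at both higher doses. It had 12.3 and 11.3 CPM in untreated libraries, 18.3 and 19.8 CPM at 24 µg/ml, 23.7 and 25.1 CPM at 240 µg/ml and 23.8 and 21.9 CPM at 480 µg/ml. All treated libraries lay above the untreated ones, and those of 240 and 480 µg/ml overlapped. It rose by 1.05 ± 0.12 on the log2 scale at 240 µg/ml (edgeR adjusted p = 0.00303) and 0.95 ± 0.12 at 480 µg/ml (edgeR adjusted p = 0.00106). At 24 µg/ml it was 0.69 ± 0.12, with an edgeR adjusted p of 0.39. The call at 240 µg/ml was lost without untreated replicate 2 (edgeR adjusted p = 0.0533) and without 240 µg/ml replicate 2 (edgeR adjusted p = 0.0504).

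TNFRSF1A (chr12:6328771-6342076), the main receptor of TNF, overlapped between the groups. It had 83.1 and 77.3 CPM in untreated libraries, 86.7 and 75.1 CPM at 24 µg/ml, 79.6 and 73.2 CPM at 240 µg/ml and 66.8 and 82.7 CPM at 480 µg/ml. The log2 fold change at 480 µg/ml was -0.10 ± 0.14, with a 95% interval from -0.43 to 0.22 (edgeR adjusted p = 0.627). That interval holds changes in either direction.

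CASP8 (chr2:201233463-201287711), the protease that death receptors activate, overlapped between the groups as well. It had 22.8 and 21.2 CPM in untreated libraries, 23.9 and 22.1 CPM at 24 µg/ml, 22.2 and 19.9 CPM at 240 µg/ml and 24.3 and 19.7 CPM at 480 µg/ml. The highest and the lowest of the 8 values were the 2 libraries of 480 µg/ml. The log2 fold change at that dose was -0.00 ± 0.14, with a 95% interval from -0.32 to 0.32 (edgeR adjusted p = 0.996). CASP8 is activated by cutting of its protein, which RNA levels do not show.

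AEN (chr15:88604683-88632281), the apoptosis-enhancing nuclease, rose at both higher doses. It had 49.2 and 43.9 CPM in untreated libraries, 67.7 and 74.6 CPM at 24 µg/ml, 82.2 and 88.6 CPM at 240 µg/ml and 72.1 and 91.3 CPM at 480 µg/ml. All treated libraries were above the untreated ones, and the 480 µg/ml libraries spanned those of 240 µg/ml. The log2 fold change was 0.88 ± 0.15 at 240 µg/ml (edgeR adjusted p = 0.0102), 0.81 ± 0.15 at 480 µg/ml (edgeR adjusted p = 0.0042) and 0.61 ± 0.15 at 24 µg/ml (edgeR adjusted p = 0.782). The call at 240 µg/ml was lost without untreated replicate 1 or 2 (edgeR adjusted p = 0.0749 and 0.11) and without 240 µg/ml replicate 1 or 2 (edgeR adjusted p = 0.0579 and 0.102). That at 480 µg/ml was lost without untreated replicate 2 (edgeR adjusted p = 0.0552).

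Between the treated groups the steps were uneven. From 24 to 240 µg/ml 2 of the 9 genes were called, FAS by 1.13 ± 0.17 (edgeR adjusted p = 0.0121) and TNFRSF10C by 0.75 ± 0.13 (edgeR adjusted p = 0.0166), both higher, where 6.83% of all genes were called and 3.34% called higher. When 1 library of 24 or 240 µg/ml was left out both calls were lost, and so were most of the calls over all genes. TNFRSF10D and EDA2R were not called in this step with all libraries, at 0.27 and 0.356 on the log2 scale. With either library of 480 µg/ml left out, these values were 0.27 and 0.355. From 24 to 480 µg/ml 3 were called higher, FAS by 1.22 ± 0.17 (edgeR adjusted p = 0.00154), TNFRSF10C by 0.95 ± 0.13 (edgeR adjusted p = 0.00141) and TNFRSF10D by 0.55 ± 0.12 (edgeR adjusted p = 0.0118), against 26.1% of all genes called and 12.7% called higher. TNFRSF10D lost that call without 24 µg/ml replicate 1 or 2 (edgeR adjusted p = 0.102 and 0.0737), with only the 2 groups compared (0.0836) and in limma on log2(TPM + 1) and log2(TPM + 0.1) (0.0796 and 0.119). Both libraries of the higher dose lay above both of the lower for 6 of the 9 genes from 24 to 240 µg/ml, for 5 from 24 to 480 µg/ml and for 3 from 240 to 480 µg/ml, and this was so for 33.2%, 31.3% and 17.3% of all genes. From 240 to 480 µg/ml edgeR called 0 of the 9, against 0.257% of all genes. Unadjusted p was under 0.05 there for TNFRSF10D alone, with a log2 fold change of 0.28 ± 0.12 and a 95% interval from 0.01 to 0.56. DESeq2 called 0 of the 9 there. Without 480 µg/ml replicate 2 edgeR called TNFRSF10D (0.39, adjusted p = 0.0375). For FAS the interval of that step was -0.29 to 0.45, for EDA2R -0.37 to 0.18 and for AEN -0.39 to 0.26, intervals that hold changes in either direction.

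On the length-scaled TPM scale the 9 genes spanned a wide range of levels in untreated cells. TNFRSF10B stood highest at 159 ± 5.47 TPM (SD, n = 2), followed by TNFRSF1A at 84.7 ± 0.49, TNFRSF10D at 34.6 ± 0.34, AEN at 33.1 ± 0.0057, CASP8 at 19.7 ± 0.85, TNFRSF10C at 13.4 ± 0.37, EDA2R at 7.49 ± 0.071, TNFRSF10A at 4.65 ± 0.61 and FAS at 3.19 ± 0.52. No neighbours in this order overlapped between libraries. At 480 µg/ml TNFRSF10B (189 ± 32.3 TPM) and TNFRSF1A (75.3 ± 1.61 TPM) kept the first places. TNFRSF10C stood above CASP8 there, at 49.2 ± 9.93 against 18.6 ± 4.85 TPM, and FAS stood above TNFRSF10A, at 13.7 ± 3.12 against 7.18 ± 0.075 TPM. TNFRSF10D overlapped AEN, AEN overlapped TNFRSF10C, CASP8 overlapped EDA2R and EDA2R overlapped FAS at that dose.

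Among the ligands of these receptors, the TRAIL gene was lower at the highest dose, FAS ligand was barely counted and EDA was not called. Of 10 ligand genes 6 passed the filter. At 480 µg/ml 2 of these 6 were called, both lower, where 27.8% of all genes were called and 13.9% called lower. The median log2 fold change of the 6 was -0.79, where the median of all genes was 0.01. TNFSF10, the gene of TRAIL itself, had 14.6 and 16.6 CPM in untreated libraries, 15.5 and 9.33 CPM at 24 µg/ml, 11.1 and 7.75 CPM at 240 µg/ml and 6.24 and 5.53 CPM at 480 µg/ml. It fell by 1.41 on the log2 scale at 480 µg/ml (SE 0.26, edgeR adjusted p = 0.00449). LTB, which encodes lymphotoxin beta, fell by 2.78 there (SE 0.44, edgeR adjusted p = 0.0023). The log2 fold change at 480 µg/ml was -0.17 for EDA, the ectodysplasin gene, -0.67 for TNFSF15 and -0.67 for TNFSF12, and none of these was called. Without 480 µg/ml replicate 1 TNFSF15 was called lower (-1.01, edgeR adjusted p = 0.0216). FASLG, the ligand of FAS, had 0 counts in 7 libraries and 4 in 480 µg/ml replicate 2. With 0 counts the level could still be as high as 3 counts, or 0.0443 to 0.0561 CPM depending on the library, for counting error only. TNF, LTA and TNFSF14 had at most 4 counts in a library. Leukocytes are a known source of several of these ligands. Their marker PTPRC had 0 counts in both untreated libraries, 2 and 10 at 24 µg/ml, 10 and 14 at 240 µg/ml. At 480 µg/ml it had 16 and 22 counts, and the part of such cells in these values was not tested.

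Of 22 other receptors of the TNF family, 14 passed the filter, with a median log2 fold change of -0.57 at 480 µg/ml. There 1 was called higher and 5 lower, where 27.8% of all genes were called and 13.9% called lower. TNFRSF1B, the second TNF receptor, fell by 2.13 (SE 0.32, edgeR adjusted p = 0.00182), to 0.456 and 0.357 CPM from 2.10 and 1.47 CPM in untreated libraries. TNFRSF11A, the receptor RANK, fell by 1.15 (SE 0.23, edgeR adjusted p = 0.00731), and TNFRSF21, also called death receptor 6, fell by 0.70 (SE 0.13, edgeR adjusted p = 0.00477). TNFRSF21 lost its call without untreated replicate 1 (edgeR adjusted p = 0.0525). TNFRSF19 fell by 0.71 (edgeR adjusted p = 0.0238) and RELT rose by 0.79 (edgeR adjusted p = 0.0316). Without untreated replicate 1 neither of these was called (edgeR adjusted p = 0.0706 and 0.205), TNFRSF19 was not called without untreated replicate 2 (0.143), and RELT was not called without 480 µg/ml replicate 2 (0.0947).

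**Figure D4:**
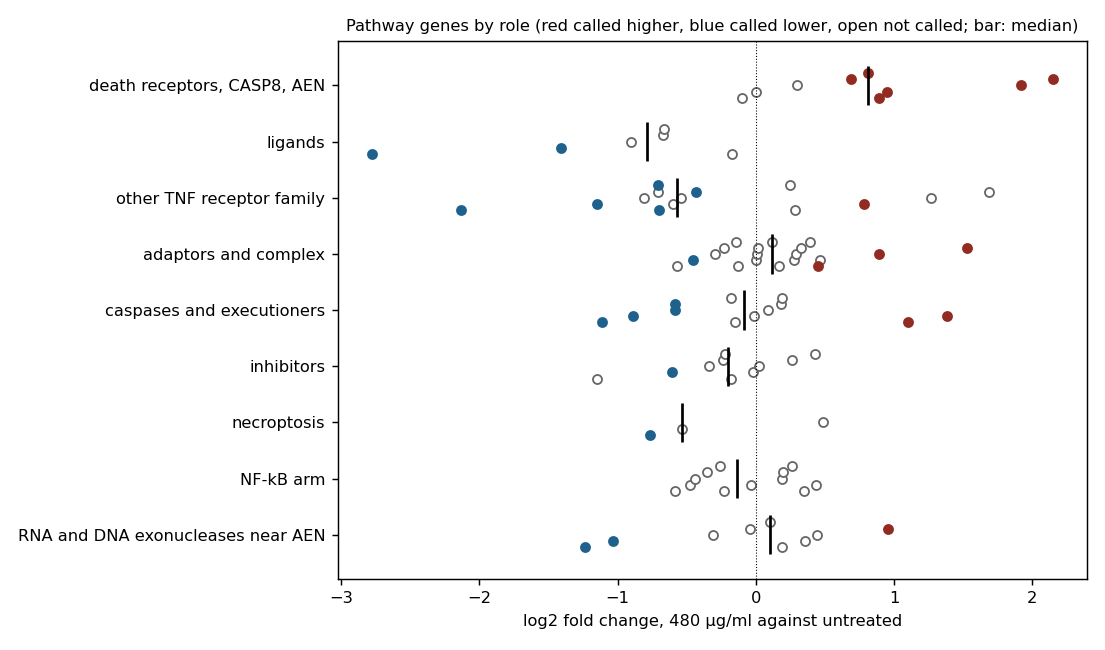
Log2 fold change at 480 µg/ml against untreated cells for each tested gene of the lists, grouped by role, with a bar at each list's median; red points were called higher, blue points lower, and open points were not called. The row of the 9 genes has 6 red points and no blue one, while the ligand row has its 2 called genes to the left of 0.

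Among 19 adaptors and complex members, all tested, 3 were called higher and 1 lower at 480 µg/ml, with a median log2 fold change of 0.12, where 27.8% of all genes were called. The share called was thus no higher than over all genes. FADD, the adaptor of FAS and the TRAIL receptors, was not among them and had 22.6 and 20.3 CPM in untreated libraries and 16.4 and 26.5 CPM at 480 µg/ml, which span the untreated ones. TRAF1, an adaptor of TNF receptors, rose by 1.53 (edgeR adjusted p = 0.0148), and TRADD, the adaptor of TNFRSF1A, by 0.89 (edgeR adjusted p = 0.0193). Without untreated replicate 2 neither was called (edgeR adjusted p = 0.112 and 0.147), nor was TRADD without 480 µg/ml replicate 2 (0.0554). PEA15, whose protein binds FADD and CASP8, had 0.45 (edgeR adjusted p = 0.0388) and TRAF3 had -0.46 (edgeR adjusted p = 0.031). PEA15 kept its call under 6 of 16 alternatives and TRAF3 under 8 of 16.

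Of 12 caspases and executioners, all tested, 2 were called higher and 4 lower at 480 µg/ml, where 27.8% of all genes were called. PIDD1, a death domain protein that activates CASP2, rose by 1.38 ± 0.21 (edgeR adjusted p = 0.00222), and CASP9, the initiator caspase of the mitochondrial route, by 1.10 ± 0.19 (edgeR adjusted p = 0.00342). BID, which CASP8 cuts to link death receptors to mitochondria, fell by 1.11 (SE 0.18, edgeR adjusted p = 0.00291). PIDD1, CASP9 and BID were called at 240 µg/ml as well, with log2 fold changes of 1.35, 0.73 and -0.71.

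Of 10 inhibitors, all tested, 1 was called at 480 µg/ml, against 27.8% of all genes. It was TNFAIP3, which restrains NF-kB signalling, at -0.61 (edgeR adjusted p = 0.0411). It kept that call under 6 of 16 alternatives. CFLAR, which encodes the CASP8 inhibitor FLIP, had 83.8 and 86.2 CPM in untreated libraries and 75.9 and 58.9 CPM at 480 µg/ml. Its log2 fold change was -0.33 ± 0.16 and not called (edgeR adjusted p = 0.141). Without 480 µg/ml replicate 1 it was -0.54 and called (edgeR adjusted p = 0.00861). Of the 12 genes of the NF-kB arm, all tested, edgeR called 0 at 480 µg/ml, against 27.8% of all genes. Of these 12, 3 had an unadjusted p under 0.05 there. Of the 4 of these genes with the smallest p in the joint test (CHUK, NFKBIA, REL and NFKBIE), DESeq2 called 0 there and limma on log2(TPM + 1) called NFKBIA and NFKBIE lower (adjusted p = 0.0193 and 0.0463). Without 480 µg/ml replicate 1 edgeR called REL (-1.22, adjusted p = 0.000294) and NFKBIA (adjusted p = 0.0448) lower, and with no filter it called REL (adjusted p = 0.0222). Without 480 µg/ml replicate 2 it called NFKBIA and NFKBIE lower (adjusted p = 0.0066 and 0.0132) and CHUK higher (adjusted p = 0.0339). In the necroptosis list 3 of 4 passed the filter, and 1 of these was called at 480 µg/ml, against 27.8% of all genes. It was HMGB1, a chromatin protein released by dying cells, which fell by 0.77 (SE 0.11, edgeR adjusted p = 0.00159). RIPK3 (0.49 ± 0.50) and MLKL (-0.53 ± 0.39) were not called (edgeR adjusted p = 0.498 and 0.34). ZBP1 had 0 counts in every library. Of 10 exonucleases and nucleases set beside AEN, 9 passed. At 480 µg/ml 1 was called higher and 2 lower, against 27.8% of all genes called. They were DNASE2 (0.96 ± 0.17), higher, and EXO1 (-1.23 ± 0.21) and ISG20 (-1.03 ± 0.20), lower (edgeR adjusted p = 0.00394, 0.00296 and 0.00651). ISG20 lost its call without untreated replicate 1 (edgeR adjusted p = 0.0545). Of genes known to respond to DNA damage, CDKN1A, which encodes an inhibitor of cyclin-dependent kinases, rose by 2.46 ± 0.19 (edgeR adjusted p = 0.000137) and MDM2, which encodes a ubiquitin ligase, by 1.84 ± 0.13 (edgeR adjusted p = 0.000107) at 480 µg/ml.

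The genes with patterns most like those of 5 of the members were sought among 9894 genes (average log2 CPM 3 or more) by Pearson's r of log2 CPM over the 8 libraries. The 8 points are 4 groups of 2 libraries, so r mostly reflects the group means, and it is given as a description. For FAS the nearest were TRIM22 (r = 0.998), MDM2 (r = 0.994) and DCP1B (r = 0.993), and 85 genes had an r over 0.95. For TNFRSF10B they were EDA2R (r = 0.986), TNFRSF10C (r = 0.975) and SPATA18 (r = 0.975), so 2 of the 3 nearest were themselves members. For EDA2R they were TNFRSF10B, ALDH7A1 (r = 0.981) and TYMS (r = 0.980). For AEN they were TSPAN11 (r = 0.974), BBC3 (r = 0.971) and CHST14 (r = 0.965). For CASP8, whose values overlapped between groups, they were RBMS2 (r = 0.954), WDR44 (r = 0.931) and ZCCHC4 (r = 0.927). Between members, r was 0.986 for FAS and TNFRSF10C, 0.964 for TNFRSF10C and TNFRSF10D, and -0.21 for FAS and CASP8.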

How the data were processed

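Counts, TPM and FPKM per gene symbol in 8 libraries were deposited by the authors. Per the submitters' processing notes, the tools were Trimmomatic, HISAT2, Bowtie2 and StringTie and the build was GRCh38; versions, annotation and counted strand are not given in the sources used here. The deposited counts are whole numbers with no normalisation. The TPM values, scaled by the authors to gene length, have 1 common total over libraries. The FPKM values deposited by the authors differ from TPM by 1 factor in each library and served only as an alternative for the TRAIL receptor ratio.

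All tests ran on the counts with edgeR 4.0.16 in R 4.3.3: TMM factors, a filter (filterByExpr, at least 10 counts in enough libraries and 15 in total) that left 18303 of 46427 rows, a quasi-likelihood fit with group as the only term over all 8 libraries, and Benjamini-Hochberg adjustment over these genes. An SE was taken as the log2 fold change over the square root of its F statistic. Intervals are 95% and unadjusted. DESeq2 1.42.0, limma 3.58.1 on log2(TPM + 1) and log2(TPM + 0.1), RLE factors, no filter, a filter of 50 counts in 2 libraries, only the 2 groups compared, a replicate block and each library left out were the alternatives. The edgeR script was tested on simulated data. Of the 46425 symbols, 42656 matched RefSeq GRCh38.p14, which supplied the gene spans. The members, the lists and the tests were chosen with earlier results of these data known. Named were all 9 members, all ligands, up to 4 genes of each other list with the smallest p among the 4 groups plus 1 moving the other way, the 3 genes most like 5 of the members, and genes overlapping a member; FADD and the single cell type markers named were added after their values were seen. Some genes that this rule names are not reported here.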

Additional observations from a re-analysis of the deposited data

How the results depend on the processing

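Depth and replication limit what these data show: 2 libraries per group, totals of 53431773 to 67715984 counts, and counting of related receptors and overlapping genes that is not described. The replicate numbers did not pair the libraries, since the correlation of replicate differences between groups ran from -0.08 to 0.04. With replicate number as a block, none of the 9 genes gained or lost a call in any comparison: 5 were called at 240 µg/ml and 6 at 480 µg/ml, as without the block. PEA15 and TRAF3 lost theirs (edgeR adjusted p = 0.0518 and 0.0534). The block left 1289, 621 and 8 genes called of all tested for 240 µg/ml against untreated, 240 against 24 and 480 against 240 µg/ml.

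FAS and TNFRSF10C at 240 and 480 µg/ml, and EDA2R and TNFRSF10D at 480 µg/ml, kept their calls against untreated cells under all alternatives. At 24 µg/ml, where 0 of the 9 were called, DESeq2 called 3, no filter 3 and only the 2 groups 1, with 0 to 2 when 1 library was left out. Leaving out 1 library gave 2 to 6 at 240 µg/ml (5 with all), 4 to 7 at 480 µg/ml (6), 0 to 4 from 24 to 240 µg/ml (2), 2 to 4 from 24 to 480 µg/ml (3), 0 to 1 from 240 to 480 µg/ml (0) and 3 to 7 in the joint test (5). From 24 to 240 µg/ml only the 2 groups gave 4, limma on log2(TPM + 1) gave 1 and on log2(TPM + 0.1) gave 0. The decoy to death domain ratio from CPM, without length scaling, was 0.220, 0.257, 0.317 and 0.375 in order of dose, and the cause is that scaling.

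Sign changes, none in a called value, came in 21 cases, most with 1 library left out. The ranges with 1 library left out, on the log2 scale, follow. Against untreated cells, TNFRSF1A ran from -0.095 to 0.11 at 24 µg/ml and from -0.27 to 0.033 at 480 µg/ml. CASP8 ran from -0.15 to 0.014 at 240 µg/ml and from -0.17 to 0.14 at 480 µg/ml, where the stricter filter gave 0.014. From 24 to 240 µg/ml TNFRSF1A ran from -0.19 to 0.023, and TNFRSF10B gave -0.034 by both limma fits. From 24 to 480 µg/ml TNFRSF1A ran from -0.28 to 0.024 and CASP8 from -0.23 to 0.077. From 240 to 480 µg/ml FAS ran from -0.030 to 0.18, TNFRSF10B from -0.033 to 0.050, TNFRSF1A from -0.19 to 0.11, CASP8 from -0.10 to 0.21 and AEN from -0.24 to 0.089. TNFRSF1A gave 0.0082 and 0.0083 there by the limma fits.

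Counts over all genes tested moved more. Against untreated cells at 24 µg/ml (0) they were 36 by DESeq2, 83 with no filter, 14 with only the 2 groups, 3 by limma on log2(TPM + 0.1) and 0 to 24 with 1 library left out. At 240 µg/ml (1892) they were 2907 with no filter, 5399, 876 and 120 to 4982 by the same settings. At 480 µg/ml (5085) they were 2858 with only the 2 groups and 2248 to 7889 with 1 library left out. From 24 to 240 µg/ml (1250) DESeq2 gave 2015, no filter 2375, only the 2 groups 4341, limma on log2(TPM + 0.1) 294 and leaving out a library 0 to 4630. From 24 to 480 µg/ml (4782) only the 2 groups gave 2442 and leaving out a library 2024 to 7591. From 240 to 480 µg/ml (47) DESeq2 gave 324, no filter 465, only the 2 groups 0, limma 0 and 3, and leaving out a library 0 to 1471. The joint test (3903) gave 2480 by limma on log2(TPM + 0.1) and 2074 to 7207 with 1 library left out. The cause of these moves was not tested.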
